A study of Mus musculus with 144 samples.

Results

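Untreated Iba1-EGFP cells of the mouse retina were divided by their level of Apoe, and all other genes were compared between the 2 sides. Of the 144 single cells in the series, 54 came from untreated eyes, and 27 of these had an Apoe level above the median of the 54 cells (Apoe-high) while 27 were at or below it (Apoe-low). The median stood at 95.7 FPKM, in fragments per kilobase of exon and 1e+06 reads assigned to genes. In the Iba1-EGFP strain a green fluorescent reporter follows Iba1, a gene of microglia and of other macrophages, so the sorted cells can include both. All mice were 16 weeks old, and the other cells of the series were taken 2 days (54 cells) or 4 days (36 cells) after crush of the optic nerve. The untreated cells lay in 3 plates of 18 cells each, and no label names the mice they came from. Each side is therefore 1 sample of cells with no replicate check, no test was made, and SDs describe the spread between cells.

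Apoe encodes apolipoprotein E, a secreted protein that carries cholesterol and other lipids between cells and is taken up by receptors of the LDL receptor family. In the healthy central nervous system it is made mainly by astrocytes, and in the retina mainly by Mueller glia. Resting microglia make little of it, microglia near damage or plaques raise it, and macrophages at the borders of nervous tissue, along vessels, in the meninges and in the choroid and ciliary body, express it strongly at rest. MHC class II molecules, which present peptides to CD4 T cells, are likewise sparse on resting microglia and found on a share of border macrophages.

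The untreated cells did not form a continuum of Apoe. Apoe, on the minus strand of chromosome 7 (chr7:19696109-19699188, GRCm38), had 95.9 FPKM in the lowest of the Apoe-high cells, 463 in their median and 55086 in the highest, against 3.26, 37.4 and 95.6 FPKM in the lowest, median and highest Apoe-low cell. The threshold fell in a dense stretch: the next cells inside and outside it had 108 and 88.4 FPKM. A wide gap lay further up, since 12 of the 27 Apoe-high cells had 3150 to 55086 FPKM (median 32941) and the other 15 had 95.9 to 467 FPKM (median 178). No untreated cell lay between 467 and 3150 FPKM. In the 12 cells, Apoe alone took a median of 7.04% of all assigned reads, from 0.673% to 11.8%. These 12 cells came from all 3 plates, with 4, 5 and 3 cells in plates 1, 2 and 3. Values are therefore given below for the sides that the median makes, and also for the 12 cells above 1000 FPKM and the 15 Apoe-high cells below it. That level of 1000 FPKM was set inside the gap after the values were seen. The cells were chosen by their Apoe level, so these values describe the choice and are not results.

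**Figure D1:**
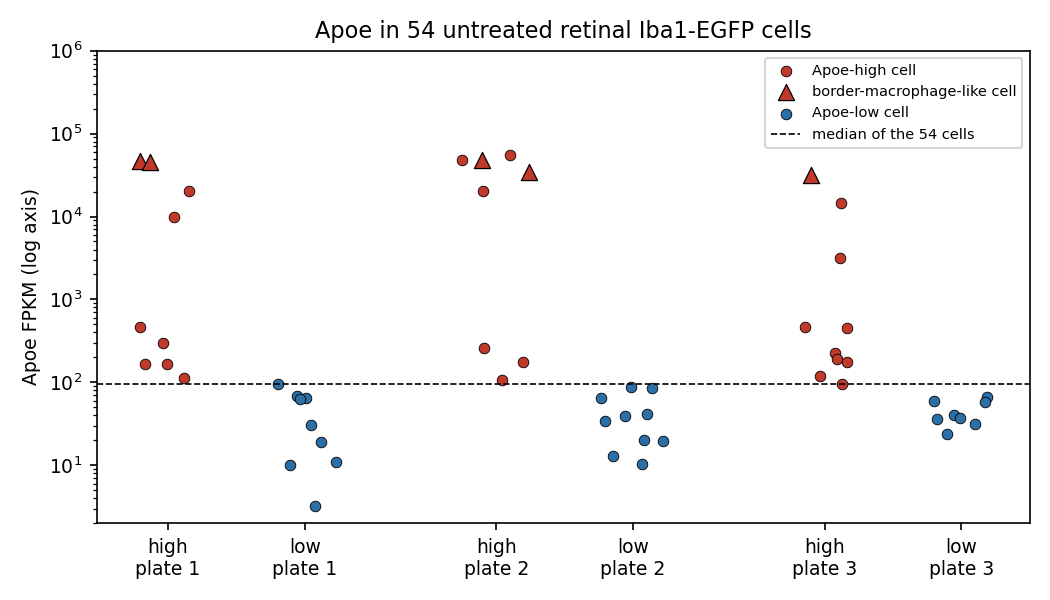
Apoe level (FPKM, log axis) of each of the 54 untreated cells by plate, with Apoe-high cells left of Apoe-low cells. Points are single cells, triangles are the 5 border-macrophage-like cells, and the dashed line is the median of 95.7 FPKM. Each plate shows a gap among the Apoe-high cells, with 4, 5 and 3 cells above it and the rest close to the line.

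The label calls every cell a microglial cell. At least 3 of 10 microglia markers reached 20 FPKM in 27 of 27 Apoe-high cells and in 27 of 27 Apoe-low cells. For border macrophages, at least 3 of their 8 markers did so in 5 of 27 Apoe-high cells (18.5%, exact 95% interval 6.30% to 38.1%) and in 0 of 27 Apoe-low cells (up to 12.8%). All 5 were among the 12 cells above 1000 FPKM, of which they made 41.7% (15.2% to 72.3%). The summed level of the 8 border macrophage markers had a median of 1076 FPKM in the 12 cells (13.9 to 6116), 14.1 FPKM in the 15 Apoe-high cells below 1000 (2.59 to 111) and 3.20 FPKM in Apoe-low cells (0.136 to 183). Of the 8 markers, Cbr2 was at 0 in all 54 cells. The 10 microglia markers summed to a median of 6887 FPKM in the 12 cells, 12233 in the 15 and 13875 in Apoe-low cells. Sall1, a transcription factor of microglial identity, reached at most 1.94 FPKM in the 12 cells and was at 20 FPKM or more in 6 of the 15 and 9 of the Apoe-low cells. C1qa, a complement gene of microglia and macrophages alike, had similar medians of 2802, 3212 and 2553 FPKM in the same order. How far border macrophages account for the gene differences below was not tested, but the counts without the 5 cells are given beside them.

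Apoe-high cells had higher levels of MHC class II genes, lysozymes, several chemokines and border macrophage genes, and lower levels of the microglia genes Tmem119 and P2ry12. Measured genes were those that reached 1 FPKM in no fewer than 10% of the untreated cells. Of these 7133 genes, 303 (4.25%) were higher and 172 (2.41%) were lower in Apoe-high cells. Higher or lower here means a difference of at least 1 in the mean of log2(FPKM + 1), which understates changes of low genes, with the same sign in all 3 plates. The median difference over all 7133 genes was 0.0072 (0.27, -0.10 and -0.12 in plates 1, 2 and 3). Without the 5 border-macrophage-like cells, 263 genes were higher, 199 of them among the 303, and 193 were lower, 126 of them among the 172. Read as log2 of the mean FPKM instead, where single cells of very high value weigh more, 582 were higher and 604 lower. Allowing for the number of detected genes per cell gave 221 higher and 287 lower. The balance of higher and lower genes therefore depended on the scale, and the account below rests on named genes.

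Cd74 differed most. It encodes the invariant chain, which guides MHC class II molecules to the endosome. Cd74 had 1.31, 120 and 23249 FPKM in the lowest, median and highest Apoe-high cell, against 0.104, 12.1 and 167 FPKM in the Apoe-low cells. On the log2 scale it averaged 8.19 ± 4.03 in Apoe-high cells and 3.65 ± 1.71 in Apoe-low cells (SD, n = 27 each), a difference of 4.55 (5.39, 5.52 and 2.93 by plate). The sides overlapped, with 12 of the 27 Apoe-high cells above every Apoe-low cell. Of these, 9 were cells above 1000 FPKM of Apoe. The microRNA gene Mir5107 lies inside Cd74 and carried the same difference of 4.55, so its reads cannot be told apart from those of Cd74.

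The genes of the class II molecule itself followed. H2-Aa encodes the alpha chain and H2-Ab1 the beta chain of one class II molecule, I-A, and H2-Eb1 the beta chain of another, I-E. H2-Aa had 0, 6.53 and 3624 FPKM in the lowest, median and highest Apoe-high cell, against 0, 0.701 and 5.42 FPKM in Apoe-low cells, a difference of 3.46 (3.80, 4.87 and 1.86 by plate). Levels of at least 20 FPKM occurred in 8 of the 12 cells above 1000 FPKM of Apoe, in 0 of the 15 other Apoe-high cells and in 0 of the 27 Apoe-low cells. H2-Eb1 reached 20 FPKM in equally many cells (8, 0 and 0), and 7 cells had both genes at that level. It had a median of 8.495 FPKM in Apoe-high cells and 1.156 FPKM in Apoe-low cells, a difference of 3.64. H2-Ab1 had a median of 26.9 FPKM in Apoe-high cells and 4.23 FPKM in Apoe-low cells, a difference of 3.47, and 7 of the 12 cells exceeded every Apoe-low cell. Of 7 measured genes on the MHC class II list, these 3 and Cd74 were higher, none was lower, and the list median was 3.46. Over all measured genes 4.25% were higher.

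H2-Aa and H2-Eb1 lie near each other on chromosome 17 and were both called higher in Apoe-high cells, and the 150 bases before each start are shown. H2-Ab1 and Cd74 were also called higher and are not shown, so the pair is a choice among the called class II genes. Capitals mark CTGATTGG, a stretch of the kind known as the Y box of MHC class II promoters, which the script searched on both strands (CTGATTGG or CCAATCAG). The sequences are RefSeq's, build GRCm38.p6, 5′ to 3′ on the strand of the gene. H2-Aa is read from the minus strand (chr17:34287824-34287973) and H2-Eb1 from the plus strand (chr17:34305717-34305866).
H2-Aa: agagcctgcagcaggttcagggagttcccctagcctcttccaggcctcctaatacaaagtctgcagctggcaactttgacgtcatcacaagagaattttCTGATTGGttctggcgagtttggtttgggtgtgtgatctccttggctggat
H2-Eb1: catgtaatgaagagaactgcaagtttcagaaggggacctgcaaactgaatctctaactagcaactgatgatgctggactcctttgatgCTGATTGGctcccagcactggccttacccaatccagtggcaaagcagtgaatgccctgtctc
The first base of the motif lies 51 bases before the start of H2-Aa and 62 bases before that of H2-Eb1. Of 32851 promoters in the table, 3.16% hold the motif in the same window of 150 bases. A match is a description of the sequence and no evidence of binding.

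The upper list also held Pf4 and Ms4a7, both on the border macrophage marker list. Pf4, the chemokine CXCL4 and a marker of border macrophages, had 0, 16.3 and 4630 FPKM in the lowest, median and highest Apoe-high cell, against 0, 1.05 and 6.65 FPKM in Apoe-low cells, a difference of 3.67 (4.03, 3.67 and 3.21 by plate). The ranges overlapped at the low end, and 19 of 27 Apoe-high cells exceeded every Apoe-low cell. Ms4a7, a membrane protein of border macrophages, had 0.123, 2.13 and 1276 FPKM in Apoe-high cells and 0, 0.115 and 0.965 FPKM in Apoe-low cells, a difference of 2.71. It reached 20 FPKM in 7 of the 12 cells above 1000 FPKM of Apoe and in 0 of the 42 others. Ms4a4a, of the same family, differed by 3.61, with medians of 10.03 and 1.03 FPKM in Apoe-high and Apoe-low cells. Among the other border macrophage markers, the mannose receptor Mrc1 reached 20 FPKM in 6 of the 12 cells and in 0 of the 42 others, and Stab1 in 5 and in 3. Lyve1 reached that level in 2 of the 12 cells, Cd163 and Folr2 in 1 each and Cbr2 in 0, and all 4 in 0 of the 42 others. Of 8 monocyte markers, F13a1, coagulation factor XIII A, reached it in 7 of the 12 cells and in 0 of the 42 others, and the other 7 in 0 untreated cells.

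Lyz2, the lysozyme of macrophages, was detected in every cell. It had 57.0, 1352 and 34845 FPKM in the lowest, median and highest Apoe-high cell, against 8.57, 50.7 and 4356 FPKM in Apoe-low cells, a difference of 3.84 (4.67, 4.96 and 2.16 by plate). All 12 cells above 1000 FPKM of Apoe had at least 1040 FPKM of Lyz2, and 10 of them exceeded every Apoe-low cell. Its near-identical neighbour Lyz1 differed by 2.96, and the authors' counting may have split reads between the pair. Of the chemokines, Ccl12 had 28.4, 482 and 38085 FPKM in Apoe-high cells, against 11.1, 50.2 and 14168 FPKM in Apoe-low cells, a difference of 3.05. Its ranges overlapped almost wholly, with 2 Apoe-high cells above every Apoe-low cell. Ccl7, which like Ccl12 draws in cells that carry CCR2, had medians of 11.7 FPKM in Apoe-high cells and 1.40 FPKM in Apoe-low cells and a difference of 3.08, of which plate 1 showed 0.77.

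The other genes of the 15 were Tmem176a, Csf2ra and Arpc5. Tmem176a, a membrane protein of myeloid cells whose exons overlap those of Tmem176b, differed by 2.79, with medians of 74.0 FPKM in Apoe-high cells and 0.956 in Apoe-low cells. Of the 27 Apoe-high cells, 4 exceeded every Apoe-low cell in Tmem176a and 0 lay under the Apoe-low median. Csf2ra, the alpha chain of the GM-CSF receptor, differed by 2.43, and 1 Apoe-high cell exceeded every Apoe-low cell. Arpc5, a subunit of the actin-branching Arp2/3 complex, differed by 2.50 as a mean of logs but by -0.20 as log2 of the mean FPKM, because its highest cell was an Apoe-low one at 4448 FPKM.

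**Figure D2:**
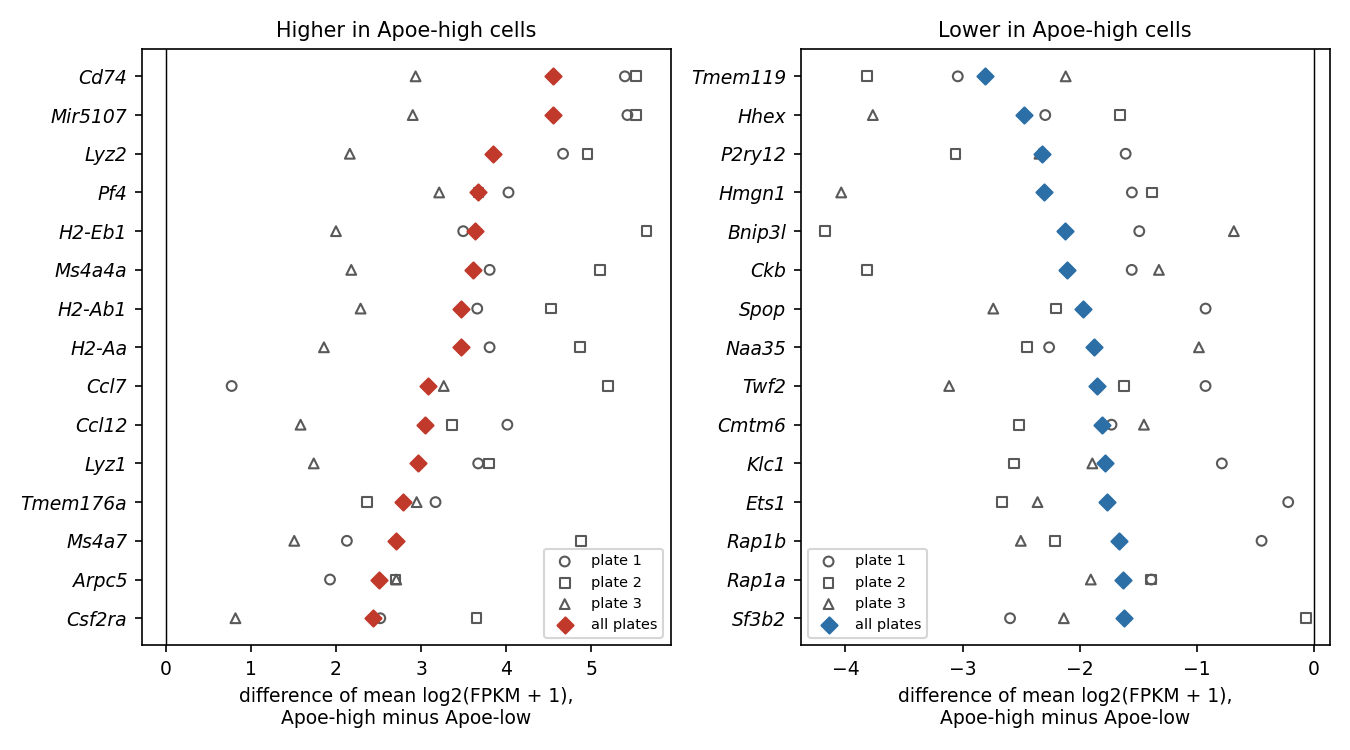
Difference of mean log2(FPKM + 1), Apoe-high minus Apoe-low untreated cells, for the 15 largest positive (left) and 15 largest negative (right) differences. Filled diamonds pool all plates and open symbols are the 3 plates; Cd74 leads at 4.55 and Tmem119 is lowest at -2.81.

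Of the genes lower in Apoe-high cells, Tmem119 and P2ry12 are the best known. Both are membrane proteins by which resting microglia are recognised, and P2ry12 is a purine receptor that guides their processes to damage. Tmem119 had 0.742, 35.1 and 2106 FPKM in the lowest, median and highest Apoe-high cell, against 2.25, 1028 and 2708 FPKM in Apoe-low cells, a difference of -2.81 (-3.04, -3.82 and -2.12 by plate). The ranges overlapped, yet 25 of 27 Apoe-high cells lay under the median of the Apoe-low cells. P2ry12 had 1.35, 152 and 2019 FPKM in Apoe-high cells and 3.96, 1327 and 3166 FPKM in Apoe-low cells, a difference of -2.32, and 24 of 27 Apoe-high cells lay under the Apoe-low median. Neither gene was lost from the Apoe-high side: 17 and 19 Apoe-high cells still had at least 20 FPKM of Tmem119 and P2ry12.

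Of 20 genes on the homeostatic microglia list, 6 were lower, 1 was higher and the median difference was -0.81. Over all measured genes 2.41% were lower and 4.25% higher. Beside Tmem119 and P2ry12, lower members included Sall1 (-1.08), the selectin ligand Selplg (-1.27) and the phagocytic receptor Mertk (-1.38). Fcrls, an Fc receptor-like gene used as a microglia marker, was higher by 1.89, with a median of 147 FPKM in the 12 cells above 1000 FPKM of Apoe, 2.96 FPKM in the 15 below and 2.72 FPKM in Apoe-low cells. Cx3cr1, the fractalkine receptor, had medians of 219, 499 and 677 FPKM in the same order and was not among the called genes.

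Several of the other genes of the lower list were at 20 FPKM in a minority of cells. Hhex, a homeobox gene, had a median of 0.356 FPKM in Apoe-high cells and 13.8 FPKM in Apoe-low cells and differed by -2.47 (-2.29, -1.65 and -3.77 by plate). It reached 20 FPKM in 3 Apoe-high and 13 Apoe-low cells. Ckb, the brain creatine kinase, differed by -2.11, with medians of 197 and 517 FPKM in Apoe-high and Apoe-low cells. Ets1, a transcription factor, and Klc1, a kinesin light chain, reached 20 FPKM in 0 Apoe-high and in 6 Apoe-low cells each, with differences of -1.76 and -1.78. Hmgn1, Bnip3l, Spop, Naa35, Twf2, Cmtm6, Rap1b, Rap1a and Sf3b2 completed the 15, with differences between -2.30 and -1.62. The paralogs Rap1a and Rap1b may share reads, and exons of P2ry12, Naa35, Klc1 and Sf3b2 overlap those of other listed genes, from which their reads cannot be told apart without strand.

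The median split joins cells on both sides of the gap, and these were also compared apart. The 12 cells above 1000 FPKM against all 42 other untreated cells gave 390 genes higher (5.47%) and 358 lower (5.02%). The 15 Apoe-high cells below 1000 FPKM against the 27 Apoe-low cells gave 257 higher (3.6%) and 170 lower (2.38%). These splits and the median split share cells, so their values are set side by side only. Of the 15 genes of the upper list, 14 had the larger difference across the gap, with Csf2ra the exception (1.71 across it and 2.34 below it). Of the 15 genes of the lower list, 6 had the larger difference across the gap and 9 below it. Cd74 differed by 7.03 across the gap and by 1.99 below it. H2-Aa differed by 5.90 and 1.18, Lyz2 by 5.85 and 1.74, Pf4 by 5.37 and 1.80, and Ms4a7 by 4.79 and 0.81. Of the MHC class II list, 4 of 7 genes were higher across the gap and 1 of 7, Cd74, below it. Tmem119 differed by -3.83 across the gap and -1.55 below it. Hhex, by contrast, differed by -1.36 across the gap and -2.62 below it, and Rap1b by -0.53 and -1.99. Ctsl, the protease cathepsin L, was lower by 3.78 across the gap and differed by 0.46 below it.

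The 12 cells were not alike. Cd74 exceeded 1000 FPKM in 9 of them and in 0 of the 42 others, whose highest value was 725 FPKM. Of those 9 cells, 5 were border-macrophage-like and 4 were not. The other 3 of the 12 cells had 14728, 9747 and 3150 FPKM of Apoe but 62.4, 40.5 and 128 FPKM of Cd74, and 2.04, 5.97 and 14.2 FPKM of H2-Aa. The first of these had 1374 FPKM of Tmem119 and 4.28 FPKM of P2ry12, the second 4.72 and 405 FPKM, and the third 588 and 1698 FPKM. In the cell with the most Apoe, at 55086 FPKM and 11.8% of its reads, Cd74 stood at 6462 FPKM and Ms4a7 at 1276 FPKM, while Pf4 had 3.69 FPKM and Mrc1 0.157 FPKM. One border-macrophage-like cell, with 47780 FPKM of Apoe and 2261 FPKM of Cd74, had 0.315 FPKM of H2-Aa and 159 FPKM of H2-Eb1. Without the 5 border-macrophage-like cells, the 7 remaining cells against the 42 others still differed by 5.65 in Cd74, 4.95 in H2-Aa, 5.18 in Lyz2 and -3.05 in Tmem119, and by 2.79 in Pf4. Of these 5, Tmem119 was not called, since it differed by 0.64 in plate 3. Plates 1, 2 and 3 held 2, 3 and 2 of the 7 cells. Of 7 measured MHC class II genes 3 were higher, a call that requires the same sign in all 3 plates. The median of that list was 4.16 but was not shared by the plates (1.67, 8.71 and -0.27 by plate). That split called 222 genes higher (3.11%) and 662 lower (9.28%).

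**Figure D3:**
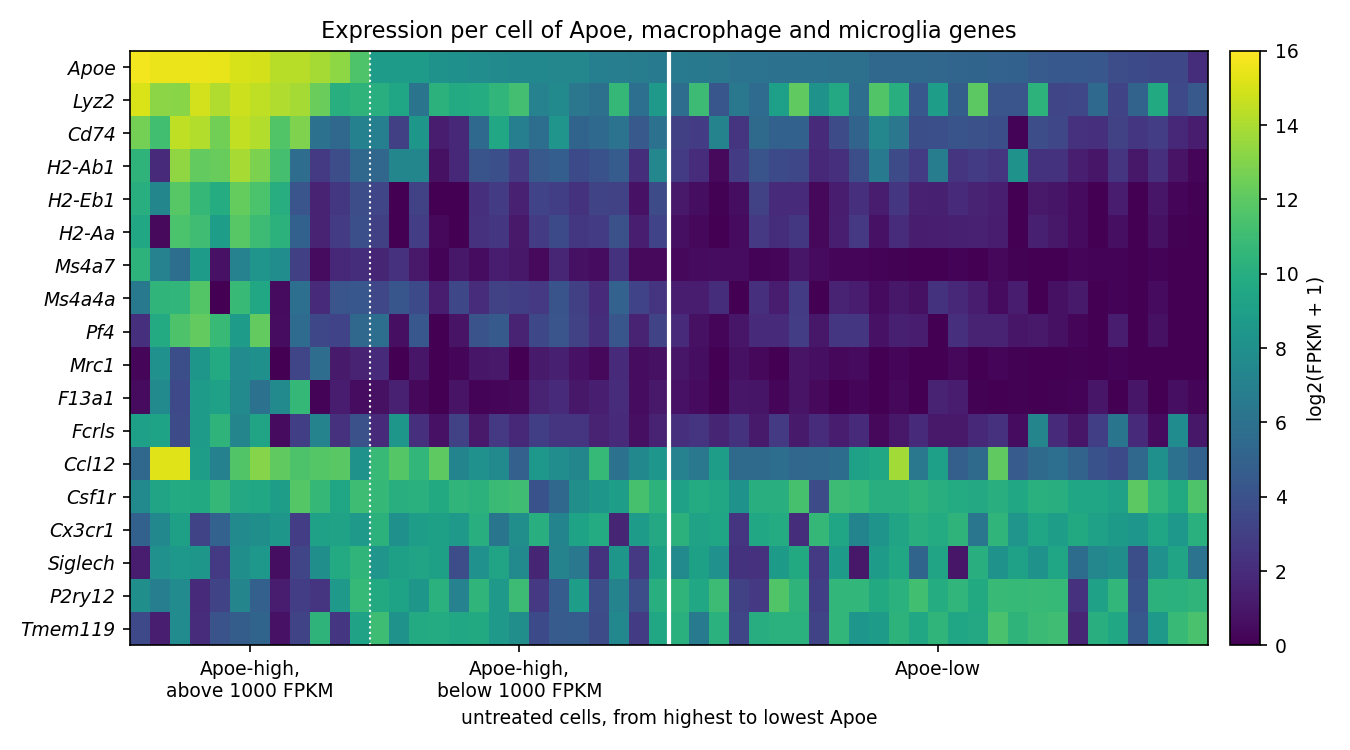
Expression, as log2(FPKM + 1), of Apoe and of macrophage and microglia genes (rows) in the 54 untreated cells (columns), ordered from highest Apoe at the left to lowest at the right. The dotted line ends the 12 cells above 1000 FPKM and the solid line ends the 27 Apoe-high cells. Cd74 and the H2 genes are bright in most of the 12 cells at the left, and Tmem119 and P2ry12 are bright mainly to the right of them.

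Below the gap, Apoe moved with sequencing depth. The median number of assigned reads was 3.71 M in Apoe-high cells (0.710 to 12.7 M, with M for 1e+06) and 6.05 M in Apoe-low cells (2.11 to 13.8 M). The 15 Apoe-high cells below 1000 FPKM had 3.33 M, and the 12 cells above it 5.11 M. Over the 42 cells at or below 1000 FPKM, Spearman's correlation with assigned reads was -0.48 for Apoe FPKM and 0.02 for the number of Apoe reads. The medians of some genes in these cells stood in similar ratios to those of the 12 cells, and those of other genes did not. The median of the 15 cells was 0.539% of that of the 12 for Apoe, whose ratio follows from the choice of cells. It was 0.844% for Cd74, 0.822% for H2-Aa, 0.607% for H2-Eb1, 0.882% for H2-Ab1 and 0.636% for F13a1. For Ms4a7 it was 1.11%, for Mrc1 2.14%, for Pf4 3.43%, for Lyz2 4.38% and for Ms4a4a 10.8%. In Apoe-low cells the same ratios were 0.114% for Apoe, 0.190% for Cd74, 0.113% for H2-Aa, 0.117% for H2-Eb1, 0.217% for H2-Ab1 and 0.115% for F13a1. They were 0.123% for Ms4a7, 0.165% for Mrc1, 0.419% for Pf4, 0.317% for Lyz2 and 1.44% for Ms4a4a. The part of depth and of RNA or reads from other wells in the differences below the gap was not tested.

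**Figure D4:**
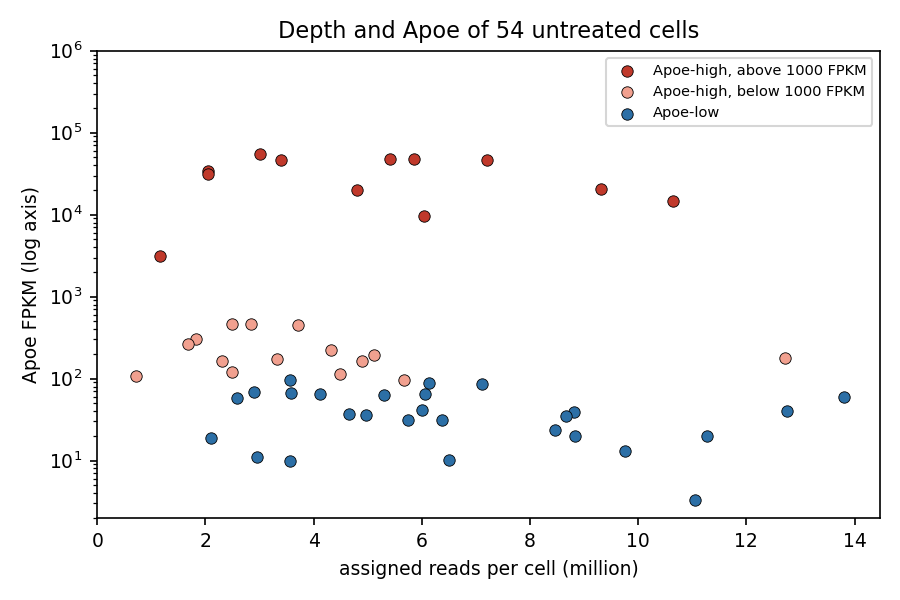
Apoe level (FPKM, log axis) against assigned reads (in units of 1e+06) for each untreated cell, with the 12 Apoe-high cells above 1000 FPKM, the 15 Apoe-high cells below it and the 27 Apoe-low cells in separate colours. Below the gap, cells with more reads tend to lie lower, with a Spearman correlation of -0.48 over 42 cells.

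Position on the plate and the number of detected genes were also compared. A median of 2838 genes reached an FPKM of 1 in Apoe-high cells and 2691 in Apoe-low cells. Thinned to 1 M reads per cell, 26 Apoe-high cells had a median of 2199.5 genes with at least 5 reads and 27 Apoe-low cells had 2193; 1 Apoe-high cell was too shallow. Well row B held 12 Apoe-high and 6 Apoe-low cells, and well column 4 held 7 Apoe-high and 2 Apoe-low cells with 5 of the 12 cells above 1000 FPKM. Over the 42 cells below the gap, Apoe reads had a Spearman correlation of 0.17 with the summed Apoe reads of the other wells in the same plate column and -0.06 with those in the same row. For Apoe FPKM the correlation with the column sum was 0.25. The column sum had a median of 991989 reads for the 15 Apoe-high cells below the gap and 357065 for the 27 Apoe-low cells. Allowing for assigned reads, 445 genes were higher and 181 lower.

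Interferon-response genes, which cells switch on in answer to type I interferon, had the most members called higher among the 15 lists. Of 16 measured genes, 10 were higher, none was lower and the median difference was 1.14 (0.95, 1.41 and 1.15 by plate). Over all measured genes 4.25% were higher. Ifitm3, which blocks virus entry, had medians of 48.1 FPKM in Apoe-high cells and 15.9 FPKM in Apoe-low cells and differed by 2.30. Bst2, the tethering protein tetherin, had medians of 68.1 and 4.60 FPKM in Apoe-high and Apoe-low cells and differed by 2.02, with 0.84 across the gap and 2.30 below it. Ifit3 differed by 1.69, Ifi27l2a by 1.54, Rtp4 by 1.44, Oasl2 by 1.34 and Isg15 by 1.33. On the same list, 4 of 16 genes were higher across the gap (median 0.71), beside 5.47% of all genes. Below the gap 6 of 16 were higher (median 1.03), beside 3.6% of all genes. Across the gap without the 5 border-macrophage-like cells, 1 of 16 was higher (median 0.18). In that split 3.11% of all genes were higher and their median was -0.19.

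Genes that handle lipoproteins and cholesterol did not follow Apoe as a group in untreated cells. Of 18 measured genes on that list 1 was higher and 2 were lower, and the median difference was 0.01. Over all measured genes 4.25% were higher and 2.41% lower. The scavenger receptor gene Msr1 was higher by 1.63, with a maximum of 194 FPKM in Apoe-high cells and 0.437 in Apoe-low cells. The gene of the Apoe receptor Lrp1 was lower by 1.15, and Mylip, whose product degrades the LDL receptor, by 1.11. Pltp, the phospholipid transfer protein, differed by 0.92 between the sides and was higher by 3.08 in the 12 cells above 1000 FPKM. Sterol synthesis genes gave 0 calls among 7 measured, with a median of 0.06. The neighbours of Apoe on chromosome 7 were mostly silent: Apoc1 differed by 0.81 and Apoc2 by 0.59, neither among the called genes. Within the 12 cells Apoc1 reached 20 FPKM in 2, at 306 and 103 FPKM, and Apoc2 in 1, at 83.6 FPKM. Tomm40, the next gene on the other side, differed by 0.12. When day 2 cells were split at their own median Apoe, 5 of 20 lipoprotein and cholesterol genes were higher and none was lower. Their median was 0.70, beside 0.29 over all genes, of which 9.13% were higher. At day 4, 1 of 22 was higher and 3 were lower, with a median of -0.33.

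Genes of disease-associated microglia, the state in which Apoe is known to rise, split in both directions. Of 19 measured genes 4 were higher, 3 were lower and the median was 0.21. Over all 7133 measured genes 4.25% were higher and 2.41% lower, and the lists of this paragraph share some genes. The higher ones were Lyz2, the receptor tyrosine kinase Axl (1.77), the tetraspanin Cd63 (1.71) and the inhibitory receptor Lilrb4a (1.61). The lower ones were the cathepsins Ctsd (-1.45) and Ctsl (-1.35) and the tetraspanin Cd9 (-1.19). Of 24 lysosomal genes 3 were higher, Lyz2 (3.84), cathepsin H (Ctsh, 1.95) and Cd63, and 4 were lower, with a median of -0.03. Of 18 complement and phagocytosis genes, Axl, Cd93 (1.40) and the inhibitory Fc receptor Fcgr2b (1.28) were higher, Mertk was lower and the median was 0.50. Of 12 MHC class I genes 3 were higher, H2-T23 (1.81), H2-K1 (1.41) and Tapbp (1.10), with a median of 0.34. Tapbp, however, differed by -1.04 across the gap and by 2.18 below it.

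Among cytokines and chemokines, Ccl7, Ccl12, Ccl2 (1.41) and Cxcl2 (1.25) were higher of 20 measured, none was lower and the median was 0.48. The counts of this paragraph stand beside 4.25% higher and 2.41% lower over all measured genes. The 3 genes of the series title were not among the called genes. Gpr84, a fatty acid receptor of myeloid cells, differed by -0.93, with medians of 4.39 FPKM in Apoe-high cells and 3.83 in Apoe-low cells. Tnf differed by 0.18 (1.89, -0.14 and -1.54 by plate) and Il1a by -0.69. Immediate-early and stress genes gave 4 higher and 1 lower of 24, and their median of 0.49 varied between plates (1.56, 0.12 and -0.63). Dusp1, a phosphatase gene induced by stress and by glucocorticoids, was higher by 2.24 with medians of 467 FPKM in Apoe-high cells and 14.8 in Apoe-low cells. Of 6 glucocorticoid-induced genes, Dusp1 and Tsc22d3 (1.68) were higher and Sgk1 (-1.03) was lower, with a median of 0.55. Proliferation genes gave 0 higher and 1 lower, Tubb5, of 11 (median 0.31), and glycolysis genes 0 higher and 1 lower, Aldoa, of 12 (median 0.05). Of 79 ribosomal protein genes, 9 were higher and 3 lower (median 0.17); 3 of the higher ones, Rps3a1, Rps3a2 and Rps3a3, are near-identical copies whose reads may be shared.

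The genes whose levels across the 54 cells were ranked most like Apoe were, by Spearman's correlation after removal of plate means, Cd74 (0.76), Mir5107 (0.76), Ms4a4a (0.75), H2-Eb1 (0.74), Pf4 (0.73) and Lyz2 (0.71). Tmem119 (-0.56), P2ry12 (-0.46), Ckb (-0.46), Bin2 (-0.46), Timp2 (-0.44) and Ctsl (-0.43) were ranked least like it. These values describe cells that share plates and depths, over genes that reached 1 FPKM in 50% or more of the cells.

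Cells taken after optic nerve crush were not used to choose the genes, and the same median split was made within each time point. They lay in other wells of the same 3 plates. At day 2 the median Apoe was 152 FPKM and 801 of 8778 genes were higher (9.13%) and 65 lower (0.74%) in the 27 Apoe-high cells against the 27 Apoe-low cells. The median difference of all genes was 0.29. All 15 genes of the upper list again differed in the positive direction, 14 of them called, whereas 72.0% of all genes did so. Cd74 differed by 4.07 at day 2, H2-Ab1 by 4.20, Ms4a4a by 4.29, Pf4 by 3.96 and Lyz2 by 2.34. Of 7 MHC class II genes 5 were higher, with a median of 3.73. Of the 15 genes of the lower list, 6 differed in the negative direction, beside 2459 of all 8778 genes, and 2 were called lower: Tmem119 (-1.86) and P2ry12 (-1.06). Rap1b went the other way, higher by 2.74.

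At day 4 the median Apoe was 55.0 FPKM, and 329 of 10131 genes were higher (3.25%) and 333 lower (3.29%) in 18 Apoe-high against 18 Apoe-low cells. This split followed the plates, since plate 3 held 10 Apoe-high and 2 Apoe-low cells. The 15 upper genes again all differed in the positive direction, beside 51.2% of all genes, and 6 were called: Cd74 (3.05), Lyz2 (2.31), Pf4 (3.03), Ms4a4a (2.56), Ccl7 (3.39) and Lyz1 (1.75). H2-Aa differed by 2.15 and Ccl12 by 0.08, neither called. Of the 15 lower genes 8 differed in the negative direction, beside 48.8% of all genes, with Naa35 (-1.81) and Ets1 (-1.50) called; Tmem119 differed by -1.72 and P2ry12 by -0.05. The title genes Tnf (-2.59) and Il1a (-1.90) were lower in Apoe-high cells at day 4. Interferon-response genes gave 13 higher of 17 at day 2 (median 1.67) and 3 higher of 20 at day 4 (median 0.54). The homeostatic list gave 6 lower of 20 at day 2 and 4 lower of 20 at day 4, with none higher on either day.

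**Figure D5:**
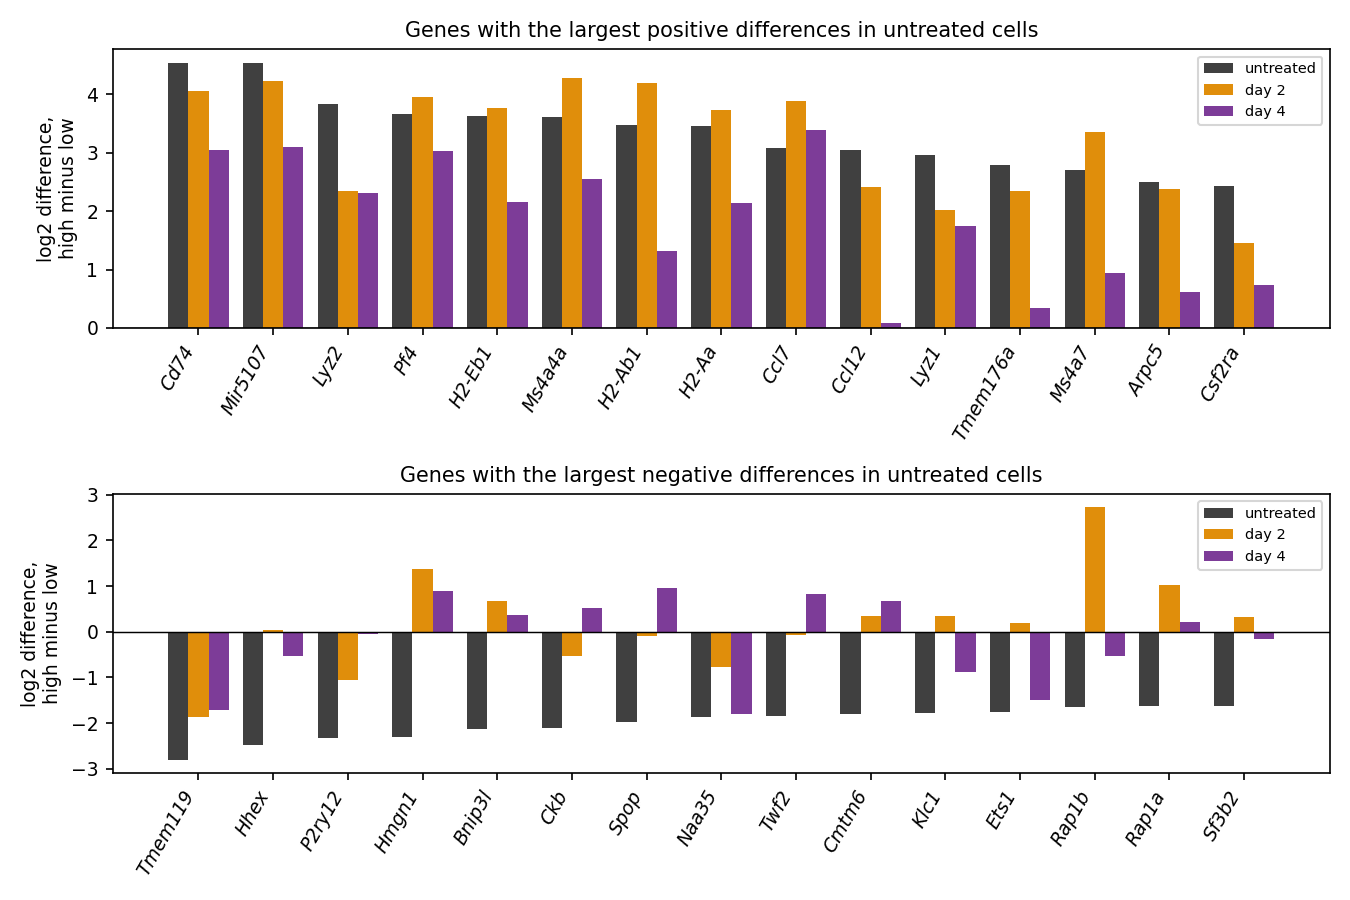
Difference of mean log2(FPKM + 1), Apoe-high minus Apoe-low cells, for the 15 genes of the upper list (top) and the 15 of the lower list (bottom) before crush (untreated) and on days 2 and 4 after it. Bars are differences within each time point. All 15 upper genes are positive at each time point, whereas of the lower genes 6 are negative at day 2 and 8 at day 4.

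A class of cells with very high Apoe was present at each time point, though not in every plate at day 4. Of 54 untreated cells 12 exceeded 1000 FPKM of Apoe, as did 15 of the 54 from day 2 and 4 of the 36 from day 4. Plates 1, 2 and 3 held 4, 5 and 6 of the day 2 cells above that level and 0, 1 and 3 of those from day 4. The highest of the remaining cells had 467, 662 and 686 FPKM at these time points. Border-macrophage-like cells numbered 5, 8 and 2, and all 15 lay above 1000 FPKM, against 0 of the 113 cells at or below it. Cd74 exceeded 1000 FPKM in 9 of the 12, 7 of the 15 and 3 of the 4 cells above that Apoe level, and in 0 of 42, 2 of 39 and 0 of 32 cells at or below it. At day 2 the 8 remaining high-Apoe cells thus had Cd74 at or under 1000 FPKM, and the lowest had 0.379 FPKM.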

How the data were processed

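Single cells were sorted by fluorescence from retinas of Iba1-EGFP mice and each was sequenced as a Nextera XT library, per the labels' protocols. The submitters' processing notes list STAR 2.7.2b, featureCounts 1.6.1 and, for trimming, cutadapt 1.16, Trimmomatic 0.36 and Trim Galore 0.4.4, and name GRCm38.p6 and mm10 as builds. Settings and any use of strand were not given in the sources used here. As deposited by the authors, the table holds FPKM values for 55364 genes in 144 cells. Each cell's FPKM values times gene length added up to 1e+09, so a gene with much RNA lowers the value of all others. Assigned reads were recovered from the step between low values and had a median of 4.93 M over the untreated cells (0.710 to 13.8 M, with M for 1e+06). A median of 59.5% of values per cell (49.1% to 69.1%) were whole reads within 0.01 read, so no count model was fitted. The labels mention no molecular identifiers, so depths count reads and not molecules, and intervals (exact Clopper-Pearson) cover counting error only.

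Genes that reached 1 FPKM in 10% or more of the cells compared were kept, of 110 repeated symbols the highest row was used, and Apoe was left out. Differences are Apoe-high minus Apoe-low means of log2(FPKM + 1), pooled and within 3 plates, computed with Python 3.11.15, NumPy 2.4.6, pandas 2.3.3 and SciPy 1.17.1 and drawn with Matplotlib 3.10.9. The procedure was tested on simulated data. Named genes were the 15 largest differences in each direction among genes that reached 1 FPKM in 30% of the cells of 1 side and had equal sign in every plate, leaving out ribosomal and unnamed genes, the 6 most and least like Apoe, up to 4 members per list, the title genes and the neighbours of Apoe. Genes named outside this rule, among them Mrc1 and F13a1, were chosen after their values were seen. The members, gene lists and markers were chosen with earlier results of these data known. Each library is a sorted well and no doublet caller was run. No gene of the mitochondrial chromosome was analysed here. 1 member of the gene lists is counted in them but not reported here by name.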

Additional observations from a re-analysis of the deposited data

How the results depend on the processing

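The comparison of the sides gave 303 genes higher and 172 lower. A pseudocount of 0.1 gave 677 and 343, and one of 10 gave 71 and 28. Requiring an FPKM of at least 1 in 50% of cells left fewer genes to compare and gave 124 and 72. Log2 of the mean FPKM gave 582 and 604, and the highest 18 against the lowest 18 cells gave 534 and 263. Allowing for detected genes per cell gave 287 lower, and leaving out genes mostly of fractional reads, which removes genes, gave 109 lower. Leaving out plate 1 gave 381 higher and 682 lower, plate 2 636 and 265, and plate 3 663 and 288; the rule then asked for equal sign in 2 plates instead of 3. Against all others, the 12 cells above 1000 FPKM gave 358 lower, and without border-macrophage-like cells 662. Where no construction is named, the cause was not tested. The plate as a block (the mean of the differences within plates) gave 310 and 180. No paired analysis was possible because plates are batches of cells and no label pairs cells between sides.

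Splits of the cells at 1000 FPKM were added after seeing the data. Of 1823 values of single named genes under the alternatives, 1614 moved by less than 1 SD between the differences of the 3 plates, 203 by more, and in 6 a gene called in the comparison of the sides changed sign: Arpc5 (-0.20, log2 of mean FPKM), Tapbp (-1.04 across the gap, -1.96 without border-macrophage-like cells), Ctsl (0.46, below the gap), and Sgk1 (0.90) and Aldoa (0.87) across the gap without border-macrophage-like cells. Genes not called there changed sign in 28 further values. List medians changed sign in 41 of 329 values; across the gap without border-macrophage-like cells the immediate-early median was -0.74, against 0.49 in the comparison of the sides. Levels near 1 FPKM rest on few reads in shallow cells.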

Other observations

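High Cd74 without high Apoe occurred in 2 cells of the series, both of day 2. One, in plate 2, had 37184 FPKM of Cd74, 20909 FPKM of H2-Ab1 and 6737 FPKM of H2-Eb1, beside 178 FPKM of Apoe and 3.87 FPKM of Lyz2. It also had 61.3 FPKM of Itgax, an integrin of dendritic cells and of activated microglia, 2166 FPKM of C1qa and 127 FPKM of Tmem119. The other, in plate 3, had 1419 FPKM of Cd74 but 2.64 FPKM of H2-Aa and 8.69 FPKM of H2-Ab1, beside 36.997 FPKM of Apoe and 2101 FPKM of Tmem119. Lyz2 above 1000 FPKM was found in 27 of the 31 cells above 1000 FPKM of Apoe in the whole series and in 28 of the 113 others. These cells were picked out after their values were seen, and nothing was tested on them.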
